A study of Homo sapiens with 12 samples.

Results

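HOX cluster genes encode homeodomain transcription factors that give cells their position along the body axis. In arrays of SH-SY5Y, an established human neuroblastoma line of sympathetic origin, they were read as every gene whose single annotated symbol is HOX, a cluster letter from A to D and a number. This gave 28 genes of 19775 with a single-symbol probe set: 1 HOXA gene, 10 HOXB, 9 HOXC and 8 HOXD genes. RefSeq lists 39 HOX genes. The other 11, HOXD3 and otherwise HOXA genes, had no single-symbol probe set and were not analysed here as members. The HOXA cluster was thus read from 1 gene alone. Each gene was read from its brightest single-symbol probe set by the mean over 12 Affymetrix arrays. Per the labels, 3 arrays held cells with fibrillar amyloid-β (Aβ, the peptide of Alzheimer plaques) and an incubation of 24 h, and 3 held controls of 24 h. Another 3 held cells with oligomeric Aβ and an incubation of 6 h, and 3 held controls of 6 h. All were of the same line, and the labels name no other agent. Whether these hours are those of peptide aggregation or of cell treatment is not given in the labels, and peptide form and hours changed together. The labels also do not say that replicates were separate cultures, so each p-value reflects the spread of these samples alone, which may be technical.

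In the clusters, genes lie in the order of the body regions they pattern, low numbers towards the head and high numbers towards the tail. Low-numbered genes are known to respond to retinoic acid, Polycomb proteins keep clusters silent, trithorax proteins keep them active, and PBX and MEIS proteins bind DNA together with HOX proteins. In neuroblastoma, HOXC9 is known for promoting differentiation and growth arrest.

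The starts of HOXD4, HOXD8 and HOXD10 are shown because these genes had fully separate groups in the comparisons at 24 h, and that of HOXC4 because its 24 h controls lay fully below its 6 h controls. Each window runs from 250 bases before to 50 after the RefSeq start on GRCh38.p14, and all 4 lie on the plus strand. They are chr2:176151300-176151599 for HOXD4, chr2:176129455-176129754 for HOXD8, chr2:176116528-176116827 for HOXD10 and chr12:54016638-54016937 for HOXC4. Capitals mark any match on either strand to CCAAT (the box bound by NF-Y), TTTATNG (bound by CDX proteins), TGATTNAT (bound by HOX with PBX) or CACGTG (the E-box).
HOXD4: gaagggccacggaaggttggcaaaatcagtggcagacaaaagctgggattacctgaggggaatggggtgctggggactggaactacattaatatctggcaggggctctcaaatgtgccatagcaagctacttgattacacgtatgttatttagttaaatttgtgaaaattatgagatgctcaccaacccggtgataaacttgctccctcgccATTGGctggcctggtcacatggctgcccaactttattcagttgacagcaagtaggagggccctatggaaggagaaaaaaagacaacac
HOXD8: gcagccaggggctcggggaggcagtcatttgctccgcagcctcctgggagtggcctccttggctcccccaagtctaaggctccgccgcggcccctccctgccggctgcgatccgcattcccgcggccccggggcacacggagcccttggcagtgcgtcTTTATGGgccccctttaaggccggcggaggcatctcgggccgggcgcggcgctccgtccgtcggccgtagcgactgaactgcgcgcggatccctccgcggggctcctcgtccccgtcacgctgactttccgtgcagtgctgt
HOXD10: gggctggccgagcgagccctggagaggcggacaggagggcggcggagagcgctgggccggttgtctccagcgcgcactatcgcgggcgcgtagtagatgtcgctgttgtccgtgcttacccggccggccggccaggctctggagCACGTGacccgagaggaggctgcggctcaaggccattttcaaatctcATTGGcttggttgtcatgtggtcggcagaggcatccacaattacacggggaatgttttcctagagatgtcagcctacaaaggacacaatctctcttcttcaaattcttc
HOXC4: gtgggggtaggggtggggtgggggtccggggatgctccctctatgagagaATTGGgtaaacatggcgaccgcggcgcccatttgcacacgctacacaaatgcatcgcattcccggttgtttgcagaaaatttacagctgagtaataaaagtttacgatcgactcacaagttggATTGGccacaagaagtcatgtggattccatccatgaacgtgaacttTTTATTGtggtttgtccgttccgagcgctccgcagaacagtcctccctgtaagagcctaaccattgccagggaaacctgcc

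CCAAT, as its reverse complement ATTGG, was found in the windows of HOXD4, HOXD10 and HOXC4, and CCAAT stood in 34.6% of 35116 RefSeq windows. TTTATNG was found in those of HOXD8 and HOXC4, against 9.73% of all. CACGTG was found in that of HOXD10, against 7.26%, and TGATTNAT, in 2.82% of all, was in none of the 4. No 2 matches overlapped. The HOXD4 window had 47.3% G and C and 4 CpG pairs, the HOXD8 window 71.7% and 34 pairs, and the HOXD10 window 60% and 23 pairs, against medians of 58.7% and 14 over all windows. So these 3 starts did not share one base composition. RefSeq gives HOXC5 the same window as HOXC4, base for base. In all, 11 of the 28 genes had a window in the table.

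The arrays carried HOXC and HOXD signal and little HOXB signal. The values are log2 MAS5 probe set signals, and a gene was tested where its mean over the 12 arrays reached the median of all probe sets, log2 3.78. Of the 28 genes, 12 did: 7 of 8 HOXD genes, 5 of 9 HOXC genes, 0 of 10 HOXB genes and not the 1 HOXA gene. By position, 1 of 5 anterior genes (numbers 1 to 3), 5 of 11 central genes (4 to 8) and 6 of 12 posterior genes (9 to 13) did. Over all genes 11774 of 19775 did. Signals of different probe sets cannot be ranked as amounts of RNA, so a gene is described only against this level and against itself.

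In the HOXC cluster the tested genes were HOXC4 (mean log2 7.40), HOXC5 (5.85), HOXC6 (9.57), HOXC9 (5.76) and HOXC10 (4.52). In mice Hoxc5, Hoxc6, Hoxc9 and Hoxc10 mark motor neurons of the cervical, brachial, thoracic and lumbar cord in that order. HOXC8 (3.58), HOXC11 (3.26), HOXC12 (1.5) and HOXC13 (0.93) were below the level. In the HOXD cluster the tested genes were HOXD1 (4.02), HOXD4 (6.54), HOXD8 (7.17), HOXD9 (5.25), HOXD10 (7.87), HOXD11 (5.05) and HOXD13 (5.02). HOXD12 was the exception, with a mean of −0.78. HOXD11 and HOXD13 are known for limb and digit patterning, and HOXD10 for hindlimb motor neurons in mice. Over the 12 arrays HOXC5 ran from 5.41 to 6.24, HOXC10 from 4.05 to 4.89, HOXD9 from 4.70 to 5.78, HOXD11 from 4.54 to 5.46 and HOXD13 from 4.70 to 5.43. HOXD1 had the widest range of the 12 tested genes, 1.77 to 5.01. The probe sets of HOXC6 and HOXD1 carry the array maker's mark for probes shared between transcripts, and RefSeq gives HOXC4, HOXC5 and HOXC6 overlapping gene bodies.

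Low-signal members were HOXB5 (3.76), HOXB9 (3.56), HOXB4 (2.82), HOXB3 (2.29), HOXB7 (2.24), HOXB1 (2.06), HOXB6 (1.82), HOXB2 (1.72), HOXB8 (1.45) and HOXB13 (0.77), with HOXA2 at 1.47. HOXB5 lay just outside the level and HOXD1 just inside it. HOXB5 had group means of 4.05 with fibrils, 4.23 in the 24 h controls, 3.97 with oligomers and 2.81 in the 6 h controls, so 3 of its 4 groups were above the level. HOXC8 was above it in the 6 h controls (3.93) and with fibrils (3.95), and HOXC11 in the 24 h controls (4.12). Values of the low-signal genes scattered: HOXA2 ran from −1.71 to 3.35 over the 12 arrays. Of 13 measured genes restricted to liver, pancreas, muscle or eye, 0 reached the level. Of 10 measured markers of noradrenergic neuroblastoma 9 did, among them GATA3 and DBH, while TH, the tyrosine hydroxylase gene, did not (0.73). Of other cell types, 1 of 4 glial markers (S100B), 1 of 4 epithelial markers (EPCAM), 2 of 6 blood or endothelial markers (PECAM1 and HBB) and 6 of 7 mesenchymal markers (among them VIM and FN1) reached it. SOX10, GFAP, CDH1 and PTPRC from these lists did not.

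**Figure D1:**
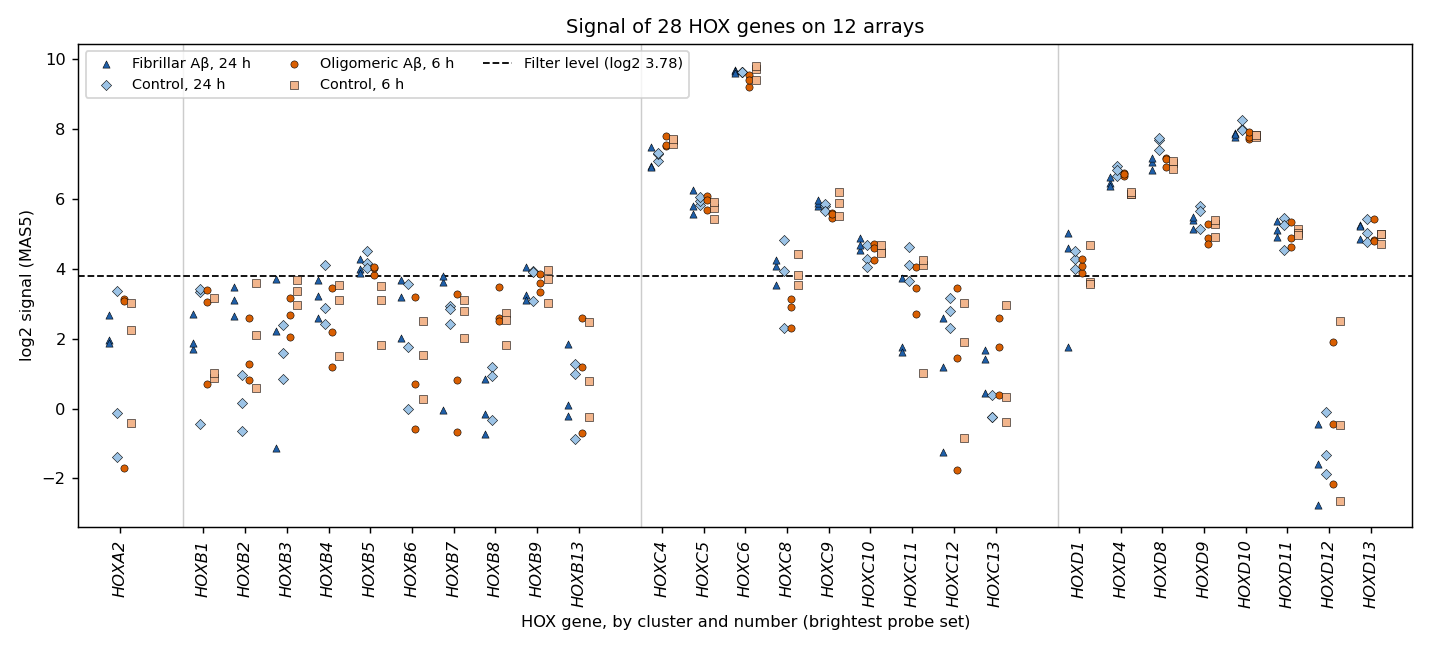
Log2 MAS5 signal (vertical axis) of the 28 HOX genes (horizontal axis, by cluster and number) on each of the 12 arrays, with a symbol per group and a dashed line at the filter level of 3.78. HOXC4, HOXC5, HOXC6, HOXC9, HOXC10 and all HOXD genes but HOXD12 have means above the line, and the HOXB genes and HOXA2 have means below it.

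Fibrillar Aβ was set against the 24 h controls to ask which HOX genes differ with this form of the peptide. Groups were separate for 3 of the 12 tested genes, a count near the share over all genes, and these 3 were HOXD genes. HOXD8 fell, and HOXD4 and HOXD10 also had fibrillar values that lay wholly below the controls without passing the test. None of the 5 tested HOXC genes had separate groups. With limma, 1 of 12 HOX genes was called at an adjusted p under 0.05, where 1.19% of all 11774 genes were (0.391% lower). An unadjusted p under 0.05 was found for 3 of 12, against 14.2% of all genes. Groups were fully apart in the same 3 of 12, against 19.7% of all genes, and all 3 were lower with fibrils, against 8.73%. The median change was −0.09 over the 12 and 0.00 over all genes.

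HOXD8, a central gene of the cluster, had a log2 signal of 6.82, 7.06 and 7.16 with fibrils and 7.69, 7.40 and 7.75 in the 24 h controls. Every fibrillar array was below every control. The means were 7.02 ± 0.17 and 7.61 ± 0.19 (SD, n = 3 each), a change of −0.60 (SE 0.13, 0.661-fold, limma adjusted p = 0.0393). In bulk RNA, fewer cells with a transcript and less transcript per cell cannot be told apart. Leaving out single 24 h arrays kept the call in 2 of 6 cases, those without fibrillar replicate 2 or control replicate 2. It was lost without fibrillar replicate 1 (−0.50, adjusted p = 0.117) or 3 (−0.67, 0.0808) and without control replicate 1 (−0.56, 0.162) or 3 (−0.53, 0.15).

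HOXD10, a posterior gene, had 7.88, 7.77 and 7.85 with fibrils and 8, 7.96 and 8.24 in the 24 h controls on its brightest probe set. The groups did not overlap, but the change of −0.24 (SE 0.10) did not pass (limma adjusted p = 0.263). Its other probe sets showed larger differences at lower signal. Probe set 238847_at had 2.37, 0.83 and 3.04 with fibrils and 4.6, 3.91 and 4.90 in the 24 h controls. All 3 fibrillar values were under the filter level, and all 3 control values were above it. In a fit of all 27307 kept probe sets this change of −2.39 (SE 0.49) passed (limma adjusted p = 0.0438), where 0.575% of probe sets were called and 0.293% lower. This probe set, with a mean of 3.93, was kept only through its other groups. Their means were 4.70 with oligomers, 4.48 in the 6 h controls and 4.47 in the 24 h controls, against 2.08 with fibrils. Values this low scatter, so the call is not taken as support for a change of HOXD10. Probe set 207373_at had 5.04, 2.06 and 3.58 with fibrils and 4.22, 4.42 and 4.72 in the 24 h controls. There fibrillar replicate 1 was the highest array, the groups overlapped, and the change of −0.90 (SE 0.52) did not pass (adjusted p = 0.492). Probe set 207373_at also had a fibrillar mean under the level, 3.56, against 4.45 in the 24 h controls, 4.35 with oligomers and 4.08 in the 6 h controls. So neither dimmer probe set, nor its sign, is taken as support for the change on the brightest. The mean of the 3 probe sets, which includes both, changed by −1.18 without passing (limma adjusted p = 0.105).

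**Figure D2:**
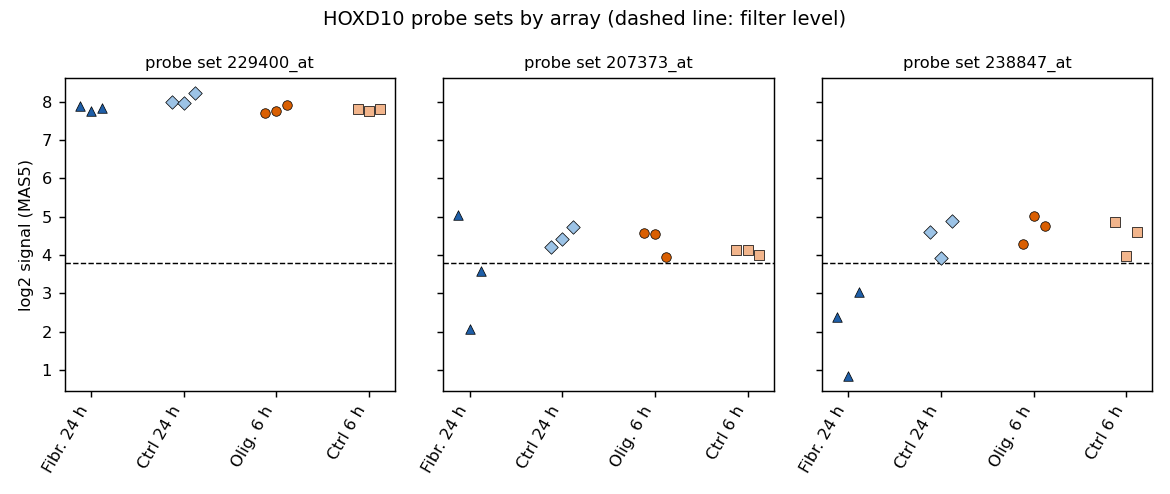
Log2 MAS5 signal (vertical axis) of the 3 HOXD10 probe sets on each array by group (horizontal axis), with a dashed line at the filter level of 3.78. On probe set 238847_at the 3 fibrillar arrays lie between 0.83 and 3.04, below every other array, while on probe set 229400_at all arrays lie between 7.71 and 8.24.

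HOXD4, a retinoic acid responsive gene of the hindbrain and neck, had 6.46, 6.62 and 6.37 with fibrils and 6.94, 6.66 and 6.82 in the 24 h controls. The groups did not overlap, by a gap smaller than either group's range. The change of −0.32 (SE 0.13) did not pass (limma adjusted p = 0.244). The other HOXD genes did not pass either. HOXD9 (−0.17, SE 0.24), HOXD11 (0.04, SE 0.27) and HOXD13 (0.02, SE 0.26) had overlapping groups. HOXD1, which in mice acts in pain-sensing neurons, had 1.77, 5.01 and 4.59 with fibrils and 4.29, 3.99 and 4.51 in the controls. Fibrillar replicate 1 was the lowest of the 12 arrays, and the change was −0.48 (SE 0.62).

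The 5 HOXC genes had changes from −0.11 to 0.37, none of which passed (adjusted p from 0.614 to 0.96). HOXC6 had 9.67, 9.65 and 9.61 with fibrils and 9.62, 9.62 and 9.64 in the 24 h controls. Its change was 0.02, with a 95% interval from −0.19 to 0.23. HOXC9 had 5.80, 5.87 and 5.97 with fibrils and 5.80, 5.84 and 5.65 in the controls, a change of 0.12 with an interval from −0.27 to 0.51. HOXC4 had 7.47, 6.93 and 6.92 with fibrils and 7.09, 7.27 and 7.30 in the controls, and fibrillar replicate 1 alone lay above the controls (−0.11, interval −0.40 to 0.18). HOXC10 had the highest estimate, 0.37, with an interval from −0.22 to 0.96. With 3 arrays a group, changes within these intervals were not excluded.

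Oligomeric Aβ was set against the 6 h controls in the same way. HOXD4 had a higher level on every oligomeric array, but neither it nor any other HOX gene passed. With limma, 0 of 12 HOX genes and 0% of all genes were called, and 2 of the 12, HOXD4 and HOXC6, had an unadjusted p under 0.05, where 2.78% of all genes did. HOXD4 was the 1 gene of the 12 with groups fully apart, against 7.36% of all genes, and 3.6% in the higher direction.

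HOXD4 had a log2 signal of 6.74, 6.65 and 6.71 with oligomers and 6.15, 6.14 and 6.19 in the 6 h controls. Both groups were tight and about 0.5 apart. The change was 0.54 (SE 0.13, 1.46-fold, interval 0.28 to 0.81). Its unadjusted p of 0.000514 was the third smallest of all genes, and the limma adjusted p was 1. HOXC6 had 9.54, 9.19 and 9.41 with oligomers and 9.72, 9.40 and 9.80 in the 6 h controls, with overlapping groups and a change of −0.26 (SE 0.10). HOXC9 had 5.58, 5.46 and 5.56 with oligomers and 6.18, 5.87 and 5.50 in the controls, where control replicate 3 fell within the oligomeric range (−0.32, SE 0.18).

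HOXD8 had 7.16, 6.90 and 7.13 with oligomers and 7.02, 6.85 and 7.09 in the 6 h controls, a change of 0.08 (SE 0.13). HOXD10 had 7.71, 7.77 and 7.91 with oligomers and 7.82, 7.76 and 7.82 in the controls, a change of −0.01 (SE 0.10). HOXC4 had 7.50, 7.53 and 7.80 with oligomers and 7.68, 7.58 and 7.70 in the controls, a change of −0.04 (SE 0.14). These groups overlapped. The remaining 6 genes had changes from −0.24 for HOXD9 to 0.21 for HOXC5, with overlapping groups.

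The 24 h controls were also set against the 6 h controls, which differed in the labelled hours and also in measures of RNA quality. HOXD4 and HOXD8 rose, both in the central part of the HOXD cluster, and no HOX gene fell by the test. All 7 tested HOXD genes had a higher mean at 24 h, with a median change of 0.32, while 4 of 5 HOXC genes had a lower one, with a median of −0.09. Over all genes 47.4% had a higher mean and the median was −0.02. Some of these HOX changes were small beside their SE, such as HOXD11 (0.05, SE 0.27) and HOXC6 (−0.01, SE 0.10). With the covariate for RNA quality given below, HOXC6 (0.11) and HOXC9 (0.06) changed sign, so the counts of signs are not firm. With limma, 2 of 12 HOX genes were called, where 11.7% of all genes were and 3.76% higher. A count of 2 of 12 is near that background, and no HOX gene was called lower, where 7.92% of all genes were. An unadjusted p under 0.05 was found for 4 of 12, against 26.6% of all genes. Groups were fully apart in 4 of 12, against 32.6% of all genes, with 3 higher, against 13.7%, and 1 lower, against 18.9%.

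HOXD4 had 6.94, 6.66 and 6.82 in the 24 h controls and 6.15, 6.14 and 6.19 in the 6 h controls. The groups were fully apart, and the change was 0.65 (SE 0.13, 1.57-fold, limma adjusted p = 0.00341). HOXD8 had 7.69, 7.40 and 7.75 in the 24 h controls and 7.02, 6.85 and 7.09 in the 6 h controls, a change of 0.63 (SE 0.13, 1.54-fold, adjusted p = 0.00546) with groups fully apart. Neither call was lost in any of 6 fits without a single control array. HOXD10 had 8, 7.96 and 8.24 in the 24 h controls and 7.82, 7.76 and 7.82 in the 6 h controls. Those groups were apart too, and the change of 0.26 (SE 0.10) did not pass (adjusted p = 0.0852).

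HOXC4 had 7.09, 7.27 and 7.30 in the 24 h controls and 7.68, 7.58 and 7.70 in the 6 h controls, fully below them, with a change of −0.43 (SE 0.14, limma adjusted p = 0.0535). It passed in 3 of the alternative fits, after median centring (−0.56, adjusted p = 0.0148), with array weights (−0.45, 0.0252) and with the 2 groups alone (−0.43, 0.0163). HOXC4 passed in 0 of 6 fits without a single control array (limma adjusted p from 0.0861 to 0.177). With a covariate for RNA quality, given below, its change shrank to −0.09 (limma adjusted p = 0.834). HOXC6 (−0.01, SE 0.10), HOXC9 (−0.09, SE 0.18), HOXC10 (−0.20, SE 0.28) and HOXC5 (0.24, SE 0.20) overlapped between the groups.

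RNA quality measures moved with these groups. The 3′ less 5′ difference of GAPDH was 0.47 to 0.52 in the 24 h controls, 0.49 to 0.81 with fibrils, 0.66 to 0.80 with oligomers and 0.77 to 0.83 in the 6 h controls. That of ACTB was 2.34 to 2.65, 2.48 to 3.06, 2.61 to 2.88 and 2.82 to 3.25 in the same groups. With the mean of both as a covariate, chosen after the data were seen, HOXD4 changed by 0.56 and HOXD8 by 0.58 between the controls, and neither passed (limma adjusted p = 0.113 for each). In that fit HOXC4 changed by −0.09 between the controls (adjusted p = 0.834), and HOXD8 changed by −0.57 with fibrils (adjusted p = 0.14). The part of RNA quality in these results was not tested further.

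**Figure D3:**
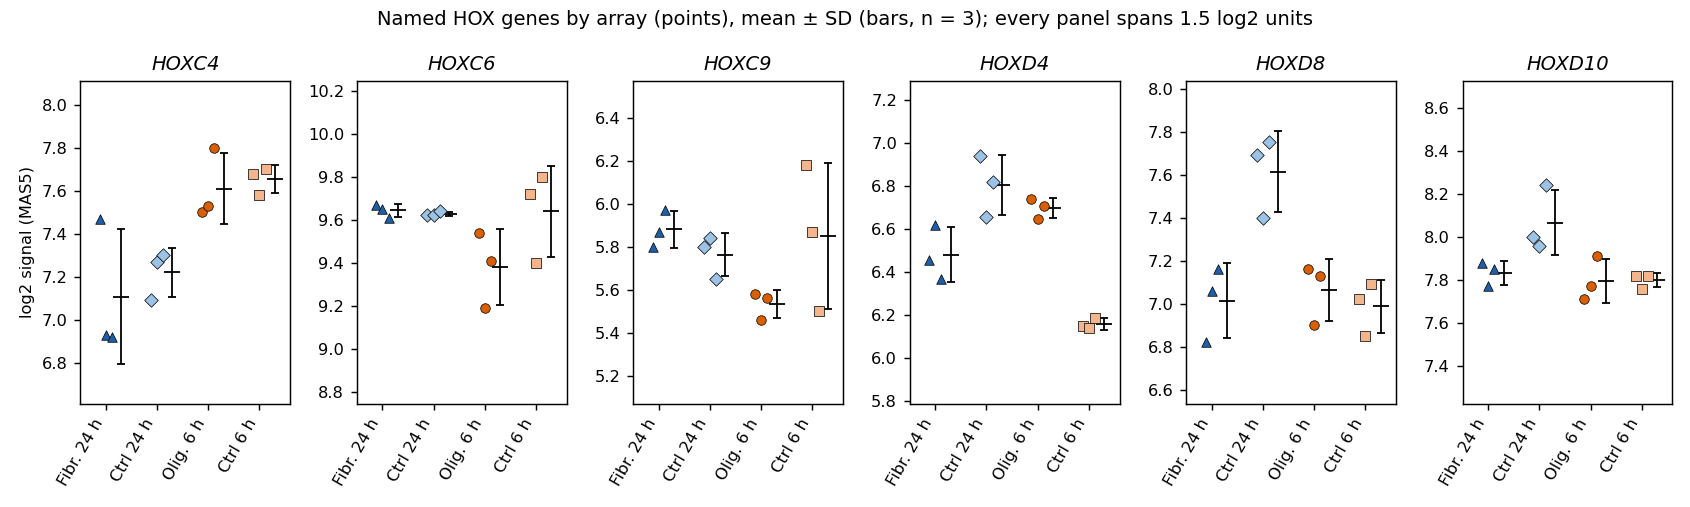
Log2 MAS5 signal (vertical axis) of 6 HOX genes on each array by group (horizontal axis), with mean ± SD (n = 3) beside the points. HOXD8 lies between 7.40 and 7.75 in the 24 h controls and between 6.82 and 7.16 on all other arrays, and HOXD4 lies between 6.14 and 6.19 in the 6 h controls and between 6.37 and 6.94 on all others.

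The comparisons share their control arrays, so their values stand side by side and are not independent. The 24 h controls were above all 9 other arrays for both HOXD8 and HOXD10. For HOXD4 the 6 h controls were below all 9 other arrays. The difference between the fibrillar and the oligomeric response, each against its own controls, was −0.87 for HOXD4 (SE 0.18, interval −1.24 to −0.49) and −0.68 for HOXD8 (SE 0.18, interval −1.07 to −0.29). Neither passed (limma adjusted p = 0.0987 and 0.239). With limma, 0 of 12 HOX genes were called for this difference and 2 had an unadjusted p under 0.05, against 0.0425% and 8.53% of all genes. HOXD4 was called with array weights (−0.89, adjusted p = 0.0462) and without fibrillar replicate 2 (−0.93, 0.0325).

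**Figure D4:**
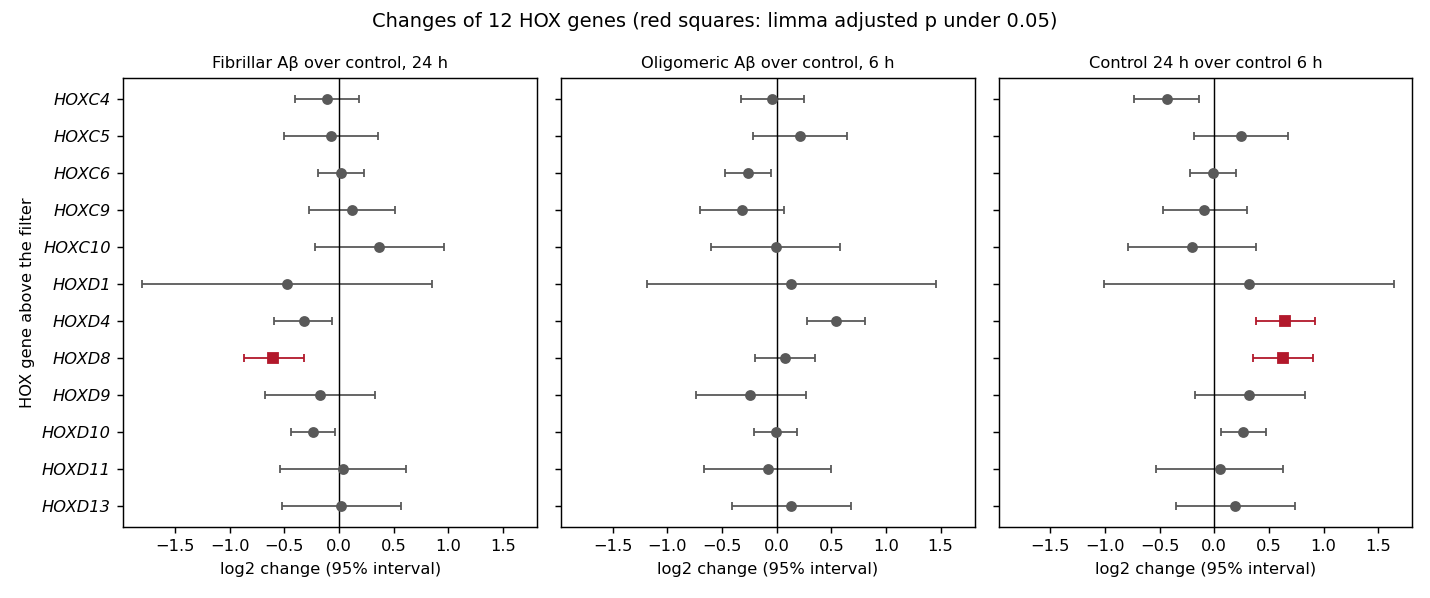
Log2 change with its 95% interval (horizontal axis) of the 12 tested HOX genes (vertical axis) for fibrillar Aβ over control at 24 h, oligomeric Aβ over control at 6 h and the 24 h over the 6 h controls. Red squares mark limma calls: HOXD8 at −0.60 with fibrils, and HOXD4 at 0.65 and HOXD8 at 0.63 between the controls.

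HOXD4 has more probe sets than the one read. One of its own, 1552337_s_at, had a mean of 3.48, under the filter level. Its group means were 3.82 with fibrils, 3.19 in the 24 h controls, 3.11 with oligomers and 3.79 in the 6 h controls. Those differences had signs opposite to those of the probe set read, at a level where values scatter. A further 3 are annotated to HOXD4, HOXD3 and LOC401021 together. The brightest of these, 206601_s_at, had 6.23, 6.46 and 6.38 with fibrils and 6.43, 5.94 and 6.17 in the 24 h controls, then 5.77, 6.37 and 5.90 with oligomers and 6.19, 6.36 and 6.16 in the 6 h controls. Its groups overlapped, its changes of 0.18 with fibrils and −0.22 with oligomers had signs opposite to those of HOXD4, and none passed (limma adjusted p = 0.735 and 1). Between the controls it changed by −0.05. Another of the 3, 217076_s_at (mean 4.86), changed by −0.22 with fibrils and 0.12 between the controls (SE 0.29 each). Those signs were the same as on the probe set read. With oligomers it changed by −0.23 (SE 0.29), the opposite sign, and none of its changes passed. The last, 206602_s_at, had a mean of 0.05. These shared probe sets cannot separate HOXD3 from HOXD4, so the HOXD4 values rest on 1 probe set. HOXD8 has a single probe set.

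Genes that work with or on the HOX clusters were read from lists of genes by role. The background was 1.19% of all genes called with fibrils, 0% with oligomers and 11.7% between the controls. Calls of list genes hold for the main fit and were not rechecked in the alternative fits. Of 8 tested PBX, MEIS and PKNOX cofactors, 0 were called by limma with fibrils or oligomers and 0 had an unadjusted p under 0.05. Between the controls PBX2 fell by 1.76 (SE 0.18, adjusted p = 3.56e-05). MEIS2, a cofactor with a mean log2 signal of 12.03, changed by −0.12 with fibrils (SE 0.07) and 0.12 between the controls (SE 0.07), neither of which passed.

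Of 29 tested Polycomb genes, 0 were called with fibrils or oligomers, with 1 at an unadjusted p under 0.05 in each. Those were YY1 with fibrils (0.20, SE 0.07) and CBX6 with oligomers (−0.38, SE 0.16). Between the controls 1 rose and 2 fell of 29, near the background of 11.7% of all genes called. RYBP rose by 0.25 (SE 0.08), CBX2, a reader of the mark H3K27me3, fell by 0.43 (SE 0.07), and EZH2, the methyltransferase that writes it, fell by 0.24 (SE 0.07), with adjusted p-values from 0.00131 to 0.0488. Of 22 trithorax and related activators, AFF4, a scaffold of the super elongation complex, rose with fibrils by 0.46 (SE 0.10, adjusted p = 0.0398), and 0 fell. KMT2A, the methyltransferase known for keeping HOX genes active, changed by 0.30 (SE 0.09, adjusted p = 0.139). Between the controls ELL2 fell by 1.01 (SE 0.22) and SETD1B by 0.51 (SE 0.13), and 0 rose, so 2 of 22 were called, where 11.7% of all genes were and 7.92% lower. With oligomers 0 were called, and 1, SETD1B (−0.69, SE 0.13, adjusted p = 0.551), had an unadjusted p under 0.05.

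Among 9 tested retinoic acid genes, 0 were called with fibrils or oligomers. With fibrils RDH10, which makes retinaldehyde, had the smallest p (0.61, SE 0.16, limma adjusted p = 0.0692). Between the controls RDH10 fell by 1.37 (SE 0.16) and ALDH1A3, which makes retinoic acid from retinaldehyde, rose by 0.48 (SE 0.14). CYP26A1 and CYP26B1, which break retinoic acid down, were below the filter level. Of the CDX, ParaHox and other positional regulators, 4 were tested and 0 called in any comparison, and CDX1, CDX2 and CDX4 were below the level.

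Of 9 tested non-coding and flanking genes of the clusters, 0 were called with fibrils or oligomers. HOTAIR, a non-coding RNA of the HOXC cluster known in human fibroblasts to repress HOXD genes, rose between the controls by 0.66 (SE 0.20, limma adjusted p = 0.0448). HOXD-AS2, from within the HOXD cluster, changed by −0.14 with fibrils (SE 0.12), −0.15 with oligomers (SE 0.12) and −0.15 between the controls (SE 0.12). LNPK, a gene flanking the HOXD cluster, had 0.31 with fibrils (SE 0.13, adjusted p = 0.294). HOTTIP and the measured HOXA and HOXB antisense RNAs were below the level. Of 8 other homeobox genes of the lineage, TLX2 fell with fibrils by 0.50 (SE 0.10, adjusted p = 0.0228), and 0 were called with oligomers. Between the controls TLX2 fell by 0.41 (SE 0.10) and PHOX2A, a factor of noradrenergic identity, by 0.44 (SE 0.08), and 0 rose.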

How the data were processed

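RNA of 12 SH-SY5Y samples, 3 in each of 4 groups by the labels' treatment field, was read on Affymetrix arrays. The authors deposited log2 signals, and the submitters' processing notes name MAS5 without a version. The 2% to 98% trimmed mean of the linear signal was equal between arrays, so no normalization was added. Detection calls were not used here. Probe sets were named through GEO's platform annotation. Of the probe sets 62 were controls, 54613 were not, and 41091 had 1 symbol.

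Genes with a mean at or above the median of the non-control probe sets were fitted with limma 3.58.1 in R 4.3.3, with group means over all 12 arrays and a prior variance trended on signal. Benjamini-Hochberg adjustment ran over all 11774 genes and the threshold was 0.05. The median SE of a change was 0.13. The number of arrays limits the precision. The procedure was tested on simulated data.

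The members, lists, named genes and alternatives were chosen with earlier results of these data known. Named with values on every array were HOX genes that were called or among the 3 smallest p-values of a comparison, and the highest in a cluster. Of the lists, called members and up to 2 in each direction were eligible. Alternatives were 2 other normalizations, the filter, the mean of probe sets, a constant prior variance, array weights, a fit of only the 2 groups compared, a block for replicate number, log2 of the signal plus 16 and each array left out. A covariate for the 3′ to 5′ difference and a fit of every probe set were added after the data were seen. Promoter windows are RefSeq's, on GRCh38.p14.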

Additional observations from a re-analysis of the deposited data

Results flagged for a closer look

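On the probe set read for HOXD4, all 3 fibrillar arrays lay below all 24 h controls (−0.32) and all 3 oligomeric arrays above all 6 h controls (0.54). Neither change passed. Probe sets 1552337_s_at, under the filter level, and 206601_s_at, shared with HOXD3, had opposite signs in both comparisons. Probe set 217076_s_at, also shared, had the same sign with fibrils (−0.22) and the opposite sign with oligomers (−0.23). On the probe set read, the difference of the responses was −0.87 (SE 0.18), with a limma adjusted p of 0.0987, so it did not pass in the main fit. Over the alternative fits the adjusted p ran from 0.0325 to 0.366. The difference passed in 2 of 22 of them, with array weights and without fibrillar replicate 2. Preparation and hours cannot be told apart in this difference.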

How the results depend on the processing

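Of the values recomputed for the 6 named HOX genes, 415 kept their side of the threshold, 12 lost and 5 gained a call, and 0 reversed. Most of the 415 belonged to genes and comparisons without a call, and these only stayed uncalled. The call of HOXD8 with fibrils was kept in 7 of 17 alternative fits. Those of HOXD4 and HOXD8 between the controls were kept in 15 of 16 each. The count of HOX genes called with fibrils, 1, was 0 after median centring, without a filter, with a constant prior variance, with the 2 groups alone and with the 3′ to 5′ covariate, and 0 to 1 with single arrays left out. HOXD8 then had an adjusted p of 0.0681, 0.0507, 0.119, 0.0796 and 0.14, and of 0.0512 with every probe set fitted. The count of 2 between the controls was 0 with the covariate and 2 with any single array left out. The count of 0 for the difference of responses was 1 with array weights and 0 to 1 with arrays left out. Filtering at the 75th percentile left 5 HOX genes of 12. By the mean of a single group, 13 or 14 HOX genes reached the filter level. HOXB5, HOXC8 or HOXC11 came in by group, and HOXD1 dropped out with fibrils. Over all genes, the 140 calls with fibrils became 79 with no filter, 62 when probe sets were averaged, 7 with a constant prior variance, 268 with array weights, 35 with the 2 groups alone, 91 with the replicate block, 38 with the covariate, and 14 to 185 with arrays left out, 87 and 21 without fibrillar replicates 1 and 3 and 14, 64 and 28 without control 24 h replicates 1, 2 and 3. The 5 calls for the difference became 3 after quantile normalization, 13 after median centring, 3 with averaged probe sets, 0 with a constant prior variance, 27 with array weights, 0 with the replicate block, 8 with log2 of the signal plus 16, 1 with the covariate, and 0 to 64 with arrays left out, 29 and 64 without fibrillar replicates 1 and 2, 6 without control 24 h replicate 2 and 0 or 1 otherwise. The 1375 calls between the controls became 473 with the covariate and 719 to 1106 with arrays left out, 719 without control 6 h replicate 2, 832 without control 24 h replicate 1 and 735 without its replicate 3. The cause of these shifts was not tested. Deviations of arrays with the same replicate number correlated from −0.02 to 0.09 over genes. With 3 arrays a group these values cannot decide whether the numbers pair samples, and the labels do not say. The replicate block changed no call of a HOX gene and could not be fitted between the controls, because it lies within each time. Limits are 3 arrays a group and low signals, where values scatter.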

Other observations

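Of the 16 HOX genes below the filter level, limma called 0 in any comparison when fitted without the filter. An unadjusted p under 0.05 was found for 1 of 16 with fibrils (HOXB2), against 10.4% of all 19775 genes, for 1 with oligomers (HOXB5), against 3.9%, for 1 between the controls (HOXB5), against 17.7%, and for 1 in the difference of responses (HOXB2), against 7.16%. Some HOX genes below the filter level had groups fully apart. With fibrils these were HOXB2 and HOXC13, both higher. With oligomers HOXB5 was higher and HOXC8 lower. Between the controls HOXB5 was higher, and HOXB3 and HOXB8 were lower. The share of all genes fully apart was computed only above the filter (19.7%, 7.36% and 32.6% in that order), so these genes have no matching background. HOXB2 had 2.64, 3.11 and 3.47 with fibrils and 0.17, −0.63 and 0.96 in the 24 h controls, but every value was below the level, and without the filter limma gave an adjusted p of 0.255. HOXB5, just outside the level, had 3.82, 4.03 and 4.05 with oligomers and 1.81, 3.51 and 3.10 in the 6 h controls. It had 4.51, 4.16 and 4.01 in the 24 h controls, with an adjusted p of 1 for oligomers and 0.128 between the controls. Its other probe set, 205600_x_at, had means of 3.96 with oligomers and 3.83 in the 6 h controls. There the 24 h controls had 3.43, lower than the 6 h controls and so of opposite sign, and the fibrillar arrays had 2.14. HOXC8 had 3.12, 2.91 and 2.29 with oligomers and 3.53, 4.42 and 3.83 in the 6 h controls (adjusted p = 1). These genes were chosen after their values were seen.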
